A study of Mus musculus with 2 samples.

Results

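The nuclear receptors for steroid and thyroid hormones form the receiving side of the hormone axes in the pituitary gland. A set of 8 receptor genes was followed here, Nr3c1, Nr3c2, Esr1, Pgr, Thra, Thrb, Rxrg and Vdr, out of 28693 genes in the deposited matrix, and all 8 were found by symbol. The glands came from C57BL/6 males aged 7 weeks, an inbred strain, with no transgene, treatment or second condition in the labels. Their dispersed cells were profiled by droplet sequencing of transcript 3' ends. There were 2 libraries, each a pool of 3 glands (n = 2). Each class of cells below was therefore measured in both pools, and the comparisons are between cell classes of the same glands. A transcript molecule is counted once through its unique molecular identifier (UMI). Levels are given in CPM, that is UMIs scaled to a common library total after each total is multiplied by edgeR's TMM normalisation factor. Over the classes this factor ran from 0.536 in somatotrope-like cells to 1.71 in pituicyte-like cells, both of library 1. Sums of markers and levels in cells chosen by their Tshb share were scaled without this factor. Folds are given as log2 fold changes with their standard errors.

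Peripheral hormones reach the pituitary through the blood and bind nuclear receptors there, which act as transcription factors on target genes. Glucocorticoids from the adrenal gland lower the output of corticotropin, sex steroids act on the gonadotropins and on prolactin, and thyroid hormone lowers thyrotropin. Thyroid hormone receptors and the vitamin D receptor bind DNA as heterodimers with retinoid X receptors, whereas the receptors for glucocorticoids, mineralocorticoids, progesterone and oestrogen bind as homodimers. Without their hormone, several steroid receptors are held by chaperones of the heat shock protein family.

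Positions are those of the mouse build mm10 in the GENCODE annotation, release M21, and the 8 genes are protein-coding. Rxrg lies on chr1:167598384-167639623, Nr3c2 on chr8:76899442-77245012, Pgr on chr9:8899833-8968611, Esr1 on chr10:4611593-5005614, Thra on chr11:98740638-98769006 and Thrb on chr14:17660261-18038090, all on the plus strand. Vdr lies on chr15:97854425-97910630 on the minus strand, and Nr3c1 is given with its values. The 3' end of Thra overlaps that of Nr1d1, a gene on the opposite strand, by 1075 bases (chr11:98767932-98769006). No source used here says whether the authors' counting took strand into account, so UMIs of this stretch could belong to either gene and Thra levels are uncertain to that extent.

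RefSeq promoter sequences of build GRCm38.p6 were matched for 6 of the 8 genes, in 9 windows. Only the windows that held AGGTCA or AGAACA are shown, and these are of Rxrg and Thrb. The window of the first start of Rxrg (chr1:167598112-167598361) held neither and is not shown. No window of the other genes held either. Rxrg and Thrb both have more than 1 start site, and 3' end counts do not tell which is used. Each window holds the 250 bases before a start site, 5′ to 3′ on the plus strand. Capitals mark AGGTCA, the core site that thyroid hormone, vitamin D and retinoid receptors bind, and AGAACA, a core site of the glucocorticoid, mineralocorticoid and progesterone receptors, each searched on both strands (TGTTCT is AGAACA on the other strand).
Rxrg, inner start (chr1:167618015-167618264): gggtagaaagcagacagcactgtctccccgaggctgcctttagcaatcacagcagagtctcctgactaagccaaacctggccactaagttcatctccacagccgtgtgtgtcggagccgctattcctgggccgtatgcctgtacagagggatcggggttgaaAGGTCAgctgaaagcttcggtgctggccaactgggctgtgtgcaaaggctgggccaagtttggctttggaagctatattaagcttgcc
Thrb, first start (chr14:17660710-17660959): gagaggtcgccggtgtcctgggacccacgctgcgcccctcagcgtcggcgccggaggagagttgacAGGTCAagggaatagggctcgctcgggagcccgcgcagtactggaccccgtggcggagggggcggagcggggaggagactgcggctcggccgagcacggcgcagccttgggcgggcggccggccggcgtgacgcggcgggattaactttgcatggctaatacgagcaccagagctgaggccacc
Thrb, inner start (chr14:17981394-17981643): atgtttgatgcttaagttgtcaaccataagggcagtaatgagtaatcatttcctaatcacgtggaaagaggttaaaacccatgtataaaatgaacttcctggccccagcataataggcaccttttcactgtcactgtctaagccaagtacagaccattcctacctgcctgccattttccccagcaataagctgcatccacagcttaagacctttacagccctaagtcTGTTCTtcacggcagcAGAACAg
The core site AGGTCA began 88 bases before the inner start of Rxrg and 184 bases before the first start of Thrb. In all, 2 of the 9 windows of the receptor genes held it, and 14.0% of all 32851 promoter windows of this length did. AGAACA was found at 2 places, 7 and 23 bases before the inner start of Thrb, in 1 of the 9 windows against 16.1% of all windows. Such a match is a description of letters, and the files hold no measure of binding.

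The matrix had 6546 barcodes of library 1, totalling 70813117 UMIs, and 7117 of library 2, totalling 78861988 UMIs. From these, 6011 and 6523 cells were used. The 5 hormone classes were named from fixed markers, none of them a nuclear receptor, and held 5501 somatotrope-like cells, 3103 lactotrope-like cells, 531 gonadotrope-like cells, 500 corticotrope-like cells and 263 melanotrope-like cells. Of 77 markers of 10 classes, 1 was at 0 in its own class, Foxl2 in gonadotrope-like cells, and Drd2 had 7 UMIs in lactotrope-like cells. A total of 54 barcode sequences occurred in both libraries. Summed over a class, fewer cells that make a transcript and less transcript per cell cannot be told apart.

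Free RNA from broken cells also reaches droplets. The amount it could bring was computed for each class from its Gh and Prl UMIs, taken to travel in the ratio to each receptor that somatotrope-like and lactotrope-like cells have. By this reckoning 2.05 of the 414 Nr3c1 UMIs of corticotrope-like cells and 6.99 of the 638 Esr1 UMIs of gonadotrope-like cells could have been carried in. For low values the share was large. Of the 60 Nr3c1 UMIs in lactotrope-like cells 17.9 could be carried, of the 9 Esr1 UMIs in corticotrope-like cells 4.05, and all of the 2 Thrb UMIs in corticotrope-like cells (2.38 computed). For Rxrg, 6.15 were computed against 5 observed in gonadotrope-like cells and 1.99 against 2 in melanotrope-like cells. The Thrb value of corticotrope-like cells and these Rxrg values are at the level of free RNA.

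**Figure D1:**
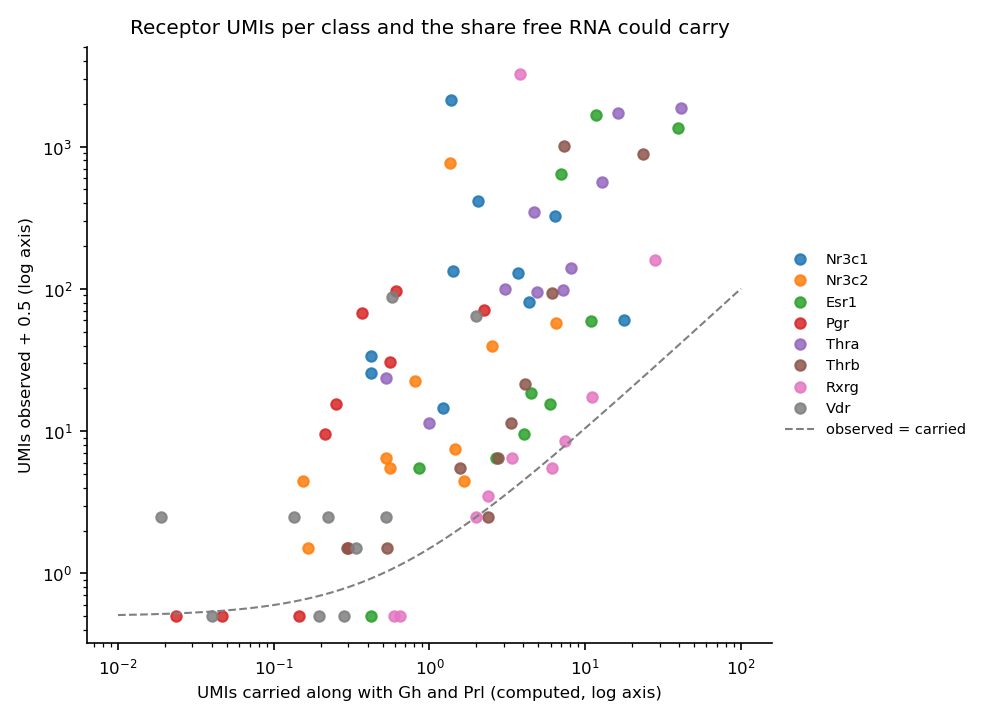
Each point is 1 receptor gene in 1 of 10 cell classes, with the UMIs that could be carried in with Gh and Prl on the x axis and the UMIs observed plus 0.5 on the y axis, both on log axes. The 3235 Rxrg UMIs of somatotrope-like cells lie far above the dashed line of equality, and the 5 Rxrg UMIs of gonadotrope-like cells lie on or under it.

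The first comparison asked in which hormone classes each receptor stands out. Each class was set against the other 4 hormone classes, whose log2 levels were averaged with equal weight, and 25 of 35 tests across 7 receptors passed edgeR's quasi-likelihood test at an adjusted p under 0.05. Vdr was under the filter on low counts. In somatotrope-like cells 5 receptors were higher and 2 lower, where 45.7% of all genes tested passed. In lactotrope-like cells 4 were higher and 2 lower, where 41.3% passed. Because logs are averaged, a value can be positive where the mean CPM is lower than that of the other classes, which held for Esr1 among the 5 in somatotrope-like cells and for Rxrg among the 4 in lactotrope-like cells. Gonadotrope-like cells had 2 higher and 3 lower (36.3% of all genes), corticotrope-like cells 2 higher and 2 lower (29.5%), and melanotrope-like cells 0 higher and 3 lower (18.8%), of which none was called with clustering on variable genes. The median log2 fold change of the 7 receptors was 1.74 in somatotrope-like, 0.57 in lactotrope-like, -0.97 in gonadotrope-like, -0.80 in corticotrope-like and -1.02 in melanotrope-like cells, while that of all genes stayed between -0.05 and 0.07.

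**Figure D2:**
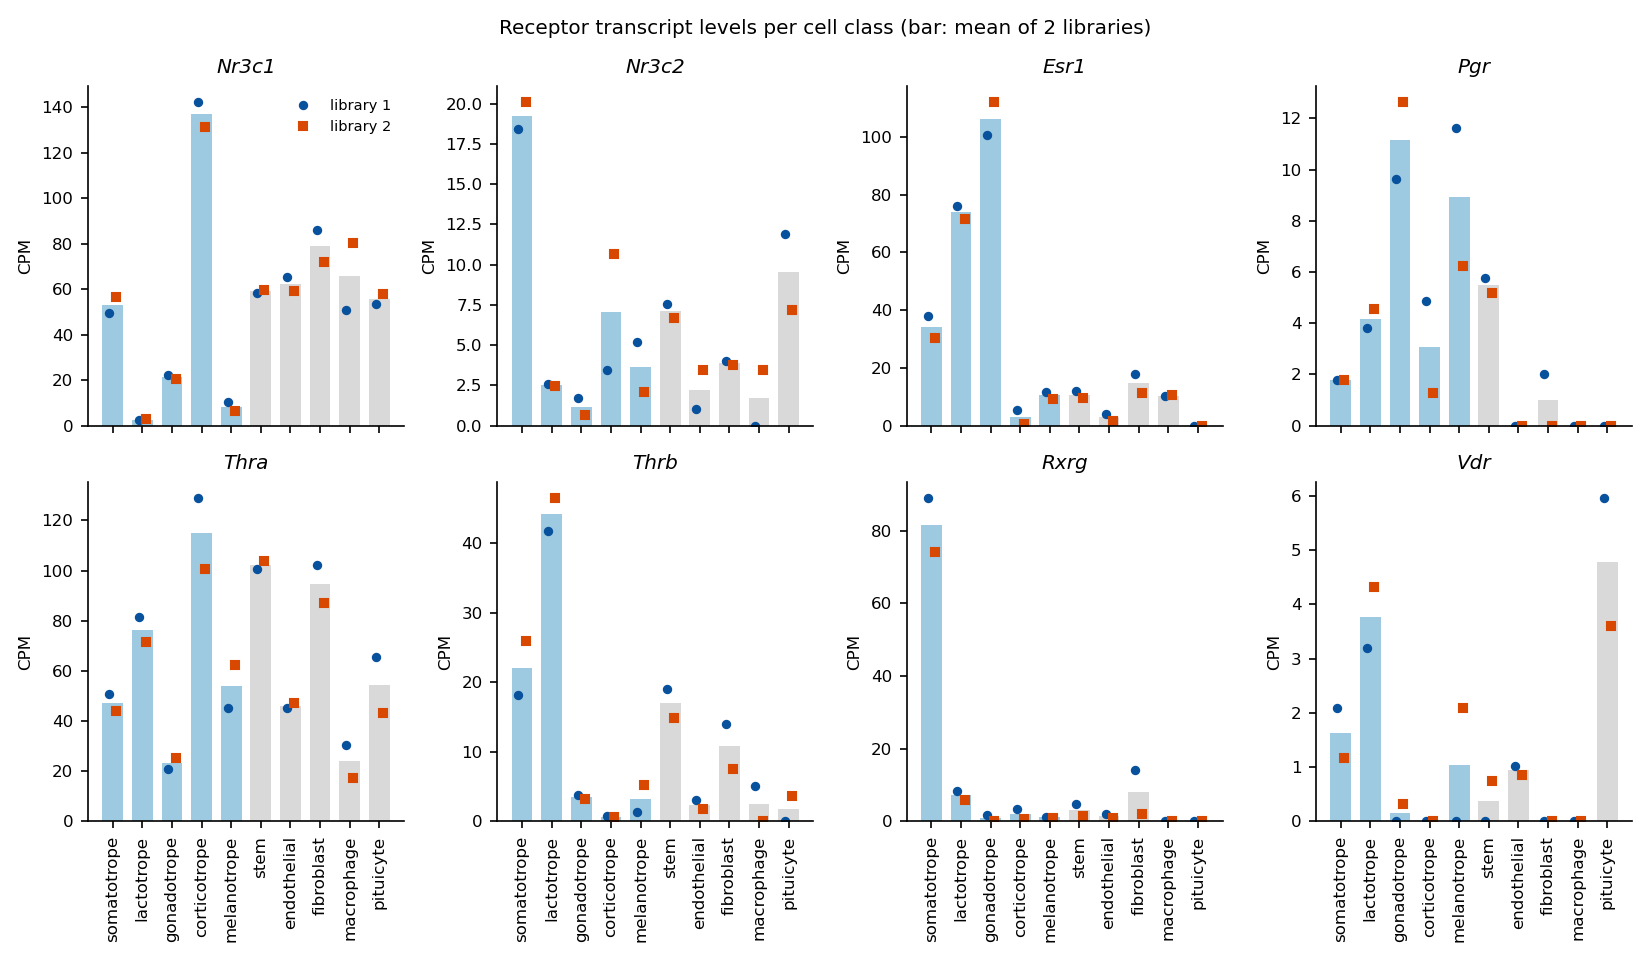
Transcript levels in CPM of the 8 receptor genes in the 5 hormone classes (blue bars) and 5 other classes (grey bars). Bars are means of 2 libraries, circles library 1 and squares library 2, and each panel has its own axis. Nr3c1 and Thra are highest in corticotrope-like cells among the hormone classes, Esr1 in gonadotrope-like, Thrb in lactotrope-like and Rxrg in somatotrope-like cells.

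Nr3c1 encodes the glucocorticoid receptor and lies on the minus strand of chr18:39410545-39519421. Corticotrope-like cells, which make corticotropin from Pomc, held 142 and 131 CPM in libraries 1 and 2. Somatotrope-like cells held 49.4 and 56.6 CPM, gonadotrope-like cells 22.4 and 20.4, melanotrope-like cells 10.3 and 6.25, and lactotrope-like cells 2.30 and 2.90. The libraries of these 5 classes did not overlap at any step of the order, and each neighbour differed from the next: corticotrope-like from somatotrope-like cells by 1.37 ± 0.12 (adjusted p = 7.83e-21), somatotrope-like from gonadotrope-like by 1.31 ± 0.15 (2.33e-14), gonadotrope-like from melanotrope-like by 1.40 ± 0.37 (0.00153) and melanotrope-like from lactotrope-like by 1.60 ± 0.48 (0.00616). Against the other hormone classes the difference was 3.45 ± 0.13 in corticotrope-like cells (adjusted p = 1.23e-57) and 1.74 ± 0.12 in somatotrope-like cells (1.91e-31). It was -3.65 ± 0.25 in lactotrope-like cells (1.18e-29) and -1.65 ± 0.33 in melanotrope-like cells (2.60e-05), and in gonadotrope-like cells it was 0.11 ± 0.17 (adjusted p = 0.712). The 2 classes that make Pomc differed in mean level, 137 CPM in corticotrope-like against 8.30 CPM in melanotrope-like cells. The melanotrope-like value was -0.37 (adjusted p = 0.270) when cells were clustered on variable genes, where that class held 384 cells in place of 263 and Tshb led its genes.

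Nr3c2 encodes the mineralocorticoid receptor, which binds corticosterone as well as aldosterone. Somatotrope-like cells held 18.4 and 20.1 CPM. Corticotrope-like cells held 3.47 and 10.7 CPM, and the other 3 hormone classes stayed at 5.17 CPM or less. Somatotrope-like cells exceeded the other hormone classes by 2.70 ± 0.19 (adjusted p = 3.41e-29) and the next class, corticotrope-like cells, by 1.41 ± 0.30 (3.76e-05). Below that step no neighbouring pair passed (adjusted p = 0.295, 0.708 and 0.106). Lactotrope-like cells (-0.96 ± 0.33, adjusted p = 0.0120) and gonadotrope-like cells (-2.30 ± 0.50, adjusted p = 5.72e-05) were lower than the others.

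Genes of the glucocorticoid and mineralocorticoid pathway came from a fixed list of 11, of which 10 passed the filter. In corticotrope-like cells 3 were higher and 0 lower, in somatotrope-like cells 4 higher and 1 lower, in lactotrope-like cells 3 and 2, in gonadotrope-like cells 0 and 2, and in melanotrope-like cells 0 and 3. Set against the shares of all genes that passed, these 3 of 10 (29.5% of all genes), 5 of 10 (45.7%) and 5 of 10 (41.3%) are near the background. Gonadotrope-like cells had 2 of 10 against 36.3% and melanotrope-like cells 3 of 10 against 18.8%. With 10 genes nothing is read from these counts. Among them Per1, a clock gene that glucocorticoids induce, was at 74.9 and 94.97 CPM in corticotrope-like cells (1.76 ± 0.14, adjusted p = 3.52e-25). Sgk1, a kinase gene induced through both receptors, was at 18.7 and 27.7 CPM there (2.22 ± 0.30, 1.84e-09). Somatotrope-like cells held 20.3 and 15.2 CPM of Sgk1, overlapping those libraries. Its log2 value leans on averaging logs with classes of low level, such as melanotrope-like cells (0 and 2.08 CPM). Endothelial-like and macrophage-like cells held more Sgk1, at means of 162 and 205 CPM. In melanotrope-like cells Klf9, a transcription factor gene induced by glucocorticoids and thyroid hormone, was at 16.8 and 11.5 CPM (-2.60 ± 0.24, adjusted p = 5.31e-17) and Tsc22d3, a glucocorticoid-induced leucine zipper gene, at 18.1 and 17.7 CPM (-1.55 ± 0.22, 1.22e-09). Tsc22d3 was highest among the hormone classes in lactotrope-like cells, at 81.1 and 81.2 CPM, with 38.2 and 40.3 CPM in corticotrope-like cells. The median of the list was 0.77 in somatotrope-like, 0.70 in corticotrope-like and 0.18 in lactotrope-like cells. It was -0.63 in gonadotrope-like and -1.08 in melanotrope-like cells.

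Esr1 encodes oestrogen receptor alpha. Gonadotrope-like cells, which make the gonadotropins, held 101 and 112 CPM, lactotrope-like cells 76.2 and 71.5, somatotrope-like cells 38.0 and 30.3, melanotrope-like cells 11.6 and 9.37, and corticotrope-like cells 5.55 and 0.629 CPM, the last from 8 and 1 UMIs. No 2 classes overlapped. All 4 neighbouring steps passed: 0.53 ± 0.11 from gonadotrope-like to lactotrope-like cells (adjusted p = 3.44e-05), 1.12 ± 0.11 from there to somatotrope-like cells (7.45e-19), 1.70 ± 0.30 to melanotrope-like cells (8.08e-07) and 1.80 ± 0.58 to corticotrope-like cells (0.0139). Against the other hormone classes the value was 2.67 ± 0.14 in gonadotrope-like (adjusted p = 1.11e-42), 2.01 ± 0.13 in lactotrope-like (2.26e-31) and 0.61 ± 0.16 in somatotrope-like cells (0.000503). The somatotrope-like mean itself was lower, 34.2 CPM against 48.4 CPM over the other hormone classes, and the positive sign comes from averaging logs with classes of few UMIs. The value was -1.52 ± 0.34 in melanotrope-like (0.000176) and -3.77 ± 0.34 in corticotrope-like cells (5.53e-20). The melanotrope-like value was -0.56 (adjusted p = 0.137) with clustering on variable genes.

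Pgr encodes the progesterone receptor, a gene that oestrogen induces in gonadotropes and other tissues. Its levels were low in every class. Gonadotrope-like cells held 9.65 and 12.6 CPM from 28 and 39 UMIs, melanotrope-like cells 11.6 and 6.25 CPM from 9 and 6 UMIs, lactotrope-like cells 3.80 and 4.55 CPM, and somatotrope-like cells 1.78 and 1.79 CPM. Gonadotrope-like cells were higher than the other hormone classes (1.57 ± 0.29, adjusted p = 1.08e-06) and somatotrope-like cells lower (-1.71 ± 0.29, 1.92e-07). The melanotrope-like value of 1.11 ± 0.49 did not pass (adjusted p = 0.105), but did with DESeq2 (1.21, adjusted p = 0.0440). No neighbouring pair in the order of classes passed (adjusted p = 0.120 to 0.656).

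Of the related receptors on the list of steroid receptors and their relatives, 3 of 6 passed the filter. Gper1, a membrane receptor that oestrogen binds, was at 27.2 and 37.5 CPM in melanotrope-like cells (2.72 ± 0.29, adjusted p = 6.96e-15) and was lower in gonadotrope-like cells (-3.84 ± 0.43, 8.94e-15). The list of sex steroid pathway genes had 6 of 10 members past the filter. Of these, 2 were higher and 1 lower in gonadotrope-like and in lactotrope-like cells, 2 higher and 1 lower in corticotrope-like cells, and 1 higher in somatotrope-like and in melanotrope-like cells. With 6 genes these counts are small beside the 18.8 to 45.7% of all genes that passed, and nothing is read from them. Greb1, an oestrogen-induced gene, was at 28.6 and 27.1 CPM in lactotrope-like cells (2.58 ± 0.19, adjusted p = 2.46e-27) and was higher in gonadotrope-like cells (2.25 ± 0.25, 3.68e-15). Hsd17b12, a dehydrogenase of fatty acid and steroid metabolism, was at 54.8 and 63.3 CPM in lactotrope-like cells (0.23 ± 0.07, adjusted p = 0.00632). The call of the neuropeptide gene Gal in melanotrope-like cells rests on library 1, with 798 CPM there and 9.37 CPM in library 2.

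Thra and Thrb encode the receptors for thyroid hormone. For Thra, corticotrope-like cells held 129 and 101 CPM, lactotrope-like cells 81.5 and 71.4, melanotrope-like cells 45.3 and 62.5, somatotrope-like cells 50.7 and 44.0, and gonadotrope-like cells 21.02 and 25.3 CPM. The overlap with Nr1d1 touches these values. Nr1d1 had 1.64 ± 0.12 in corticotrope-like cells (adjusted p = 1.22e-24), the class highest in Thra, but -0.70 ± 0.10 in lactotrope-like cells (1.13e-09), the second in Thra. Against the other hormone classes Thra was 1.30 ± 0.11 higher in corticotrope-like (adjusted p = 2.21e-19) and 0.57 ± 0.07 higher in lactotrope-like cells (1.26e-10). It was lower in somatotrope-like cells (-0.29 ± 0.08, adjusted p = 0.000962) and gonadotrope-like cells (-1.57 ± 0.13, 2.14e-20). Melanotrope-like and somatotrope-like cells, neighbours in the order, overlapped and did not pass (0.22 ± 0.17, adjusted p = 0.380), whereas the other 3 steps did (adjusted p = 1.45e-06, 0.0189 and 4.56e-11).

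Thrb was seen in fewer classes. Lactotrope-like cells held 41.8 and 46.5 CPM and somatotrope-like cells 18.1 and 25.9 CPM. Gonadotrope-like cells held 3.79 and 3.24 CPM, melanotrope-like cells 1.29 and 5.21, and corticotrope-like cells 0.694 and 0.629 from 1 UMI each. The step from lactotrope-like to somatotrope-like cells was 1.01 ± 0.12 (adjusted p = 3.19e-12) and that from somatotrope-like to gonadotrope-like cells 2.64 ± 0.27 (7.39e-15), and the 2 steps below did not pass (adjusted p = 1 and 0.146). Thrb was 3.59 ± 0.19 higher in lactotrope-like cells than in the other hormone classes (adjusted p = 3.19e-33), 2.32 ± 0.22 higher in somatotrope-like cells (1.23e-16) and lower in corticotrope-like cells (-3.92 ± 0.69, 1.45e-06). Among the hormone classes corticotrope-like cells thus had the highest Thra level and the lowest Thrb level, that of Thrb being at the level of free RNA.

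Rxrg encodes retinoid X receptor gamma, a partner of both thyroid hormone receptors and of the vitamin D receptor. Somatotrope-like cells held 89.0 and 74.2 CPM from 1700 and 1535 UMIs. Lactotrope-like cells came next with 8.40 and 5.81 CPM, and the other 3 hormone classes were at 3.47 CPM or less. The step from somatotrope-like to lactotrope-like cells was 3.53 ± 0.14 (adjusted p = 8.02e-54) and that to corticotrope-like cells 1.81 ± 0.50 (0.00192). Against the other hormone classes Rxrg was 5.38 ± 0.16 higher in somatotrope-like cells (adjusted p = 3.68e-66). The lactotrope-like difference of 0.96 ± 0.32 passed (adjusted p = 0.00860) but was 0.96 without the library block (adjusted p = 0.115), 0.03 where doublets stayed in (0.957) and 0.42 on clusters made from variable genes (0.147). Its mean was lower, 7.10 CPM in lactotrope-like cells against 21.4 CPM over the other hormone classes, the positive sign again coming from logs averaged over classes of few UMIs. Gonadotrope-like cells were lower (-2.82 ± 0.68, adjusted p = 0.000297), as were melanotrope-like cells (-2.23 ± 0.83, 0.0442), both at the level that free RNA gives. The melanotrope-like call was lost in 5 alternatives and changed sign in 1 of them. Of the list of partners and retinoid receptors, all 5 passed the filter, with 2 higher and 1 lower in somatotrope-like, 1 and 2 in lactotrope-like, 0 and 1 in gonadotrope-like, 2 and 1 in corticotrope-like and 1 and 0 in melanotrope-like cells, too few to set against the shares of all genes.

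**Figure D3:**
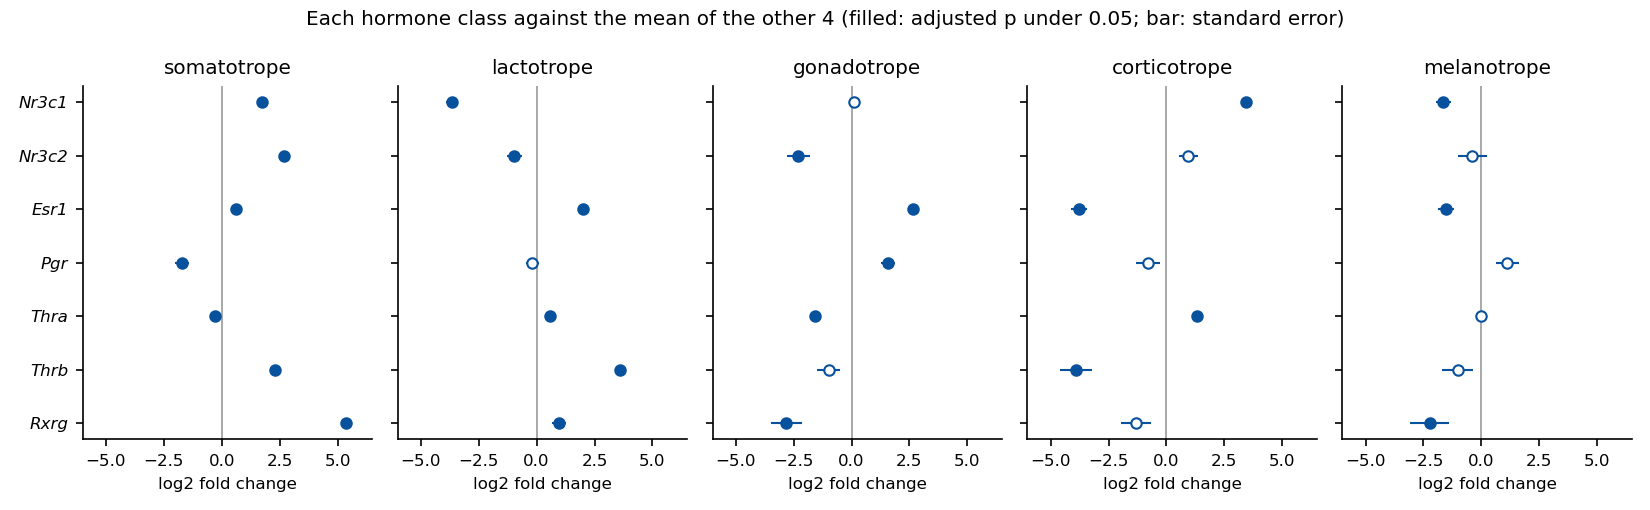
Log2 fold changes of 7 receptor genes in each hormone class against the mean of the other 4, with standard errors as bars and filled circles for an adjusted p under 0.05. Rxrg in somatotrope-like cells lies farthest right at 5.38, and Thrb in corticotrope-like cells farthest left at -3.92.

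Vdr encodes the vitamin D receptor. It had 32 and 55 UMIs in lactotrope-like cells (3.2005 and 4.32 CPM) and 40 and 24 UMIs in somatotrope-like cells (2.10 and 1.16 CPM), with 0 to 2 UMIs per library in each of the other 3 hormone classes. The libraries of lactotrope-like and somatotrope-like cells did not overlap. With no filter on low counts, Vdr was higher in lactotrope-like cells than in the other hormone classes (3.504 ± 0.60, adjusted p = 6.40e-08) and higher in somatotrope-like cells (2.00 ± 0.75, 0.0255). The fitted sizes lean on classes with 0 to 2 UMIs. Of the vitamin D pathway list 1 of 6 genes passed the filter, Lrp2, which takes up vitamin D bound to its carrier, and it was not called in a hormone class.

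Of the thyroid hormone pathway list 9 of 11 genes passed the filter. In somatotrope-like cells 3 were higher and 3 lower, in lactotrope-like cells 2 and 1, in gonadotrope-like cells 1 and 1, in corticotrope-like cells 3 and 0, and in melanotrope-like cells 2 and 0. The 3 of 9 in lactotrope-like (41.3% of all genes), 3 of 9 in corticotrope-like (29.5%) and 2 of 9 in melanotrope-like cells (18.8%) are near the background. The 6 of 9 in somatotrope-like cells stand beside 45.7% and the 2 of 9 in gonadotrope-like cells beside 36.3%. With 9 genes nothing is read from these counts. Dio1, a deiodinase that activates and clears thyroid hormone, was at 23.3 and 18.7 CPM in melanotrope-like cells (7.77 ± 0.67, adjusted p = 3.04e-21). The other hormone classes held 0.629 CPM or less, with 0 in both libraries of gonadotrope-like cells. The size of this log2 value leans on those classes of few or no UMIs. Thrsp, a gene that thyroid hormone induces in liver, was at 20.6 and 14.4 CPM in somatotrope-like cells, below the other hormone classes (-2.02 ± 0.08, adjusted p = 2.90e-54). Thrap3, an mRNA processing and coactivator gene, was at 50.5 and 53.6 CPM there (0.26 ± 0.08, 0.00245). Dio2, the deiodinase that makes the active hormone within cells, was 2.64 ± 0.32 higher in somatotrope-like cells (adjusted p = 6.26e-13), at 6.08 and 6.04 CPM, and is named here after its values were seen.

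Pairs of hormone classes were compared to order the levels, and 55 of 70 tests of the 7 receptors passed. Somatotrope-like and lactotrope-like cells differed in all 7 (3 higher, 4 lower), where 44.9% of all genes passed, and somatotrope-like and gonadotrope-like cells in 7 (5 higher, 2 lower), where 47.9% did. Somatotrope-like cells differed from corticotrope-like cells in 6 (38.2% of all genes) and from melanotrope-like cells in 6 (29.4%). Lactotrope-like cells differed from gonadotrope-like cells in 6 (45.5%), from corticotrope-like cells in 6 (37.5%) and from melanotrope-like cells in 5 (26.1%). Gonadotrope-like cells differed from corticotrope-like cells in 6 (31.5%) and from melanotrope-like cells in 3 (23.9%). Corticotrope-like and melanotrope-like cells differed in 3 (20.2%).

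The wider family of nuclear receptors was taken from a list of 30 further genes, of which 20 passed the filter. In gonadotrope-like cells 7 were higher and 2 lower, in corticotrope-like cells 6 and 1, in somatotrope-like cells 5 and 6, in melanotrope-like cells 4 and 3, and in lactotrope-like cells 1 and 9. The totals of 9, 7 and 11 of 20 in gonadotrope-like, corticotrope-like and somatotrope-like cells and of 10 in lactotrope-like cells are near the background of 36.3, 29.5, 45.7 and 41.3% of all genes, and melanotrope-like cells had 7 of 20 against 18.8%. Nr5a1, which encodes steroidogenic factor 1, a regulator of gonadotropin genes, was at 97.2 and 106 CPM in gonadotrope-like cells (7.23 ± 0.21, adjusted p = 7.89e-60), and Nr0b1, which encodes its repressor DAX1, at 69.3 and 68.3 CPM (6.70 ± 0.22, 2.72e-68). In corticotrope-like cells Nr4a1, an orphan receptor gene that acts on Pomc, was at 370 and 527 CPM (1.97 ± 0.19, adjusted p = 4.83e-06), and its relative Nr4a2 at 171 and 204 CPM (1.77 ± 0.28, 0.000301). Neither was particular to them. Stem-like cells held 431 and 463 CPM of Nr4a1, and melanotrope-like cells a mean of 153 CPM of Nr4a2.

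**Figure D4:**
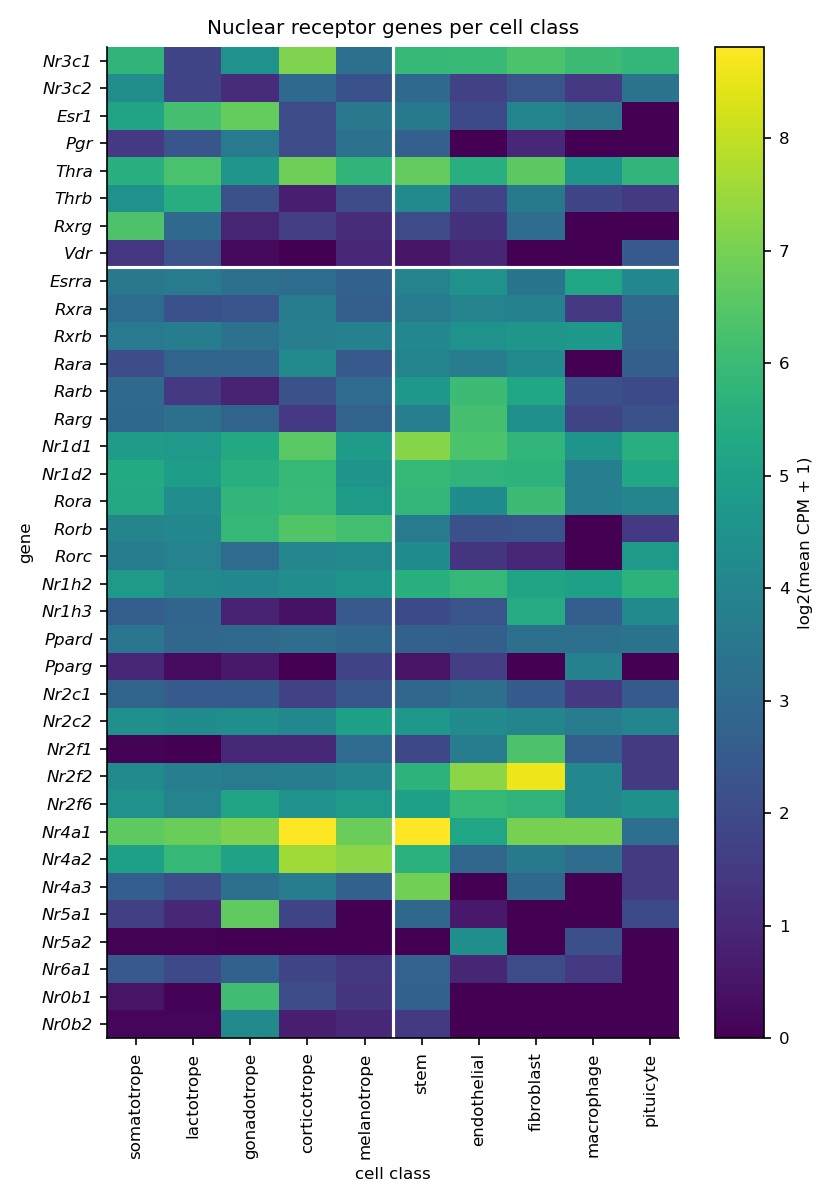
Levels of 36 nuclear receptor genes, as log2 of the mean CPM of 2 libraries plus 1, in 5 hormone classes (left of the white line) and 5 other classes. The 8 followed genes are above the white line, and below it are the related receptors with a mean of at least 5 CPM in some class. Nr5a1 and Nr0b1 stand out in gonadotrope-like cells.

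Coregulators, which receptors recruit to activate or silence genes, were followed in a list of 15, all past the filter. In gonadotrope-like cells 6 were higher and 1 lower, in corticotrope-like cells 5 and 0, in somatotrope-like cells 1 and 5, in lactotrope-like cells 1 and 7, and in melanotrope-like cells 0 and 1. These totals of 7, 5, 6 and 8 of 15 in the first 4 classes are near the 36.3, 29.5, 45.7 and 41.3% of all genes that passed there, and 1 of 15 stands beside the 18.8% of melanotrope-like cells. In gonadotrope-like cells Tbl1xr1, part of a corepressor complex, was at 25.2 and 31.1 CPM (1.36 ± 0.17, adjusted p = 4.41e-12), Nrip1, a corepressor of oestrogen receptors that oestrogen induces, at 52.0 and 68.7 CPM (1.14 ± 0.12, 4.07e-16), and Ncoa7 at 28.3 and 23.3 CPM (0.74 ± 0.17, 0.000165). Ncoa1, a steroid receptor coactivator, was lower in lactotrope-like cells at 11.8 and 13.3 CPM (-0.95 ± 0.15, 2.48e-08). The 10 receptor chaperones all passed the filter. In corticotrope-like and in somatotrope-like cells 6 were higher and 0 lower, in lactotrope-like cells 4 and 2, in gonadotrope-like cells 2 and 5, and in melanotrope-like cells 0 and 7. The total of 6 of 10 stands beside 29.5% of all genes in corticotrope-like, 45.7% in somatotrope-like and 41.3% in lactotrope-like cells, and 7 of 10 beside 36.3% in gonadotrope-like and 18.8% in melanotrope-like cells. Fkbp5, a chaperone of the glucocorticoid receptor that glucocorticoids induce, was at 6.47 and 11.5 CPM in melanotrope-like cells (-1.84 ± 0.30, adjusted p = 2.52e-07), with Hspa8 at 733 and 793 CPM (-1.20 ± 0.08, 6.53e-29) and Dnaja1 at 198 and 248.9 CPM (-0.97 ± 0.15, 0.000162). Hsp90aa1 was at 1038 and 1146 CPM in corticotrope-like cells (0.91 ± 0.07, 8.87e-24).

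Cells that make no pituitary hormone were each set against all 5 hormone classes, whose log2 levels were again averaged with equal weight. Of 35 receptor tests 14 passed. Stem-like cells had 4 higher and 1 lower, where 57.7% of all genes passed, and endothelial-like cells had 1 higher and 2 lower (58.9%). Fibroblast-like cells had 2 higher and 0 lower (35.6%), macrophage-like cells 1 and 1 (37.3%), and pituicyte-like cells, glia of the posterior lobe, 1 and 1 (22.0%). In these last 2 classes the median of all genes was -0.42 and -0.29, so their values are to be read against that shift. Nr3c1 was the receptor higher in all 5: by 1.55 ± 0.13 in stem-like cells (58.3 and 59.6 CPM, adjusted p = 3.01e-22), 1.62 ± 0.17 in endothelial-like (4.94e-16), 1.97 ± 0.21 in fibroblast-like (86.2 and 71.9 CPM, 2.90e-15), 1.75 ± 0.31 in macrophage-like (7.04e-07) and 1.47 ± 0.35 in pituicyte-like cells (0.000374). Mean Nr3c1 levels differed less, at 55.7 to 79.1 CPM in these 5 classes against 44.4 CPM over the hormone classes. The larger log2 values come from averaging logs with classes of low level. Corticotrope-like cells, at 137 CPM, were above all 5. The pituicyte-like log2 value was 0.21 (adjusted p = 0.688) at a clustering resolution of 0.5, where that class held 203 cells in place of 52.

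Stem-like cells were also higher in Thra (101 and 104 CPM, 0.88 ± 0.09, adjusted p = 7.58e-16), Thrb (19.1 and 14.8 CPM, 1.496 ± 0.27, 1.13e-06) and Nr3c2 (7.56 and 6.67 CPM, 0.73 ± 0.32, 0.0410), and lower in Esr1 (-1.17 ± 0.23, 4.69e-06). For Thrb and Nr3c2 the mean levels were close, 17.0 against 14.7 CPM over the hormone classes and 7.12 against 6.74 CPM. Their log2 values lean on averaging logs with classes of few UMIs. Lactotrope-like (44.2 CPM) and somatotrope-like cells (22.0 CPM) held more Thrb, and somatotrope-like cells (19.3 CPM) more Nr3c2. The Nr3c2 call was lost with library sizes without the hormone genes (0.69, adjusted p = 0.0552) and with clustering on variable genes (0.55, 0.122). Nr1d1, which overlaps Thra, was higher in stem-like cells as well (1.96 ± 0.08, adjusted p = 2.24e-47). Fibroblast-like cells were higher in Thra (102 and 87.1 CPM, 0.77 ± 0.18, 0.000167). Macrophage-like cells were lower in Thra (30.6 and 17.4 CPM, -1.27 ± 0.40, 0.00654), a call lost with DESeq2 (-1.03, adjusted p = 0.0688) and where doublet calls were kept (-0.77, 0.0581). Endothelial-like cells were lower in Esr1 (-3.09 ± 0.44, 2.79e-10), and their Pgr was at 0 UMIs, at least 4.15-fold lower than the mean of the hormone classes by a floor of 3 counts over both libraries. Esr1 was at 0 UMIs in pituicyte-like cells, at least 6.76-fold lower by the same floor, but its log2 difference was 0.40 (adjusted p = 0.348) at resolution 0.5. Among the listed genes Hsd11b1, which regenerates active glucocorticoid, was 8.16 ± 0.15 higher in stem-like (4.69e-77) and 9.02 ± 0.18 higher in fibroblast-like cells (1.27e-71). Hsd11b1 is named here after its values were seen.

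Each hormone class was then split at the median share of its own hormone within each library, to ask whether a receptor differs between cells with more and with less hormone transcript. Levels in the groups are CPM of UMIs outside the hormone genes. Esr1 in somatotrope-like cells was the 1 receptor value of 35 to pass. Its levels were 45.8 and 36.2 CPM in the Gh-rich groups, against 59.7 and 47.6 CPM in the Gh-poor groups (-0.39 ± 0.10, adjusted p = 0.00659). The drop was seen in both libraries, -0.37 and -0.39, and the call was lost without the library block (-0.39, adjusted p = 0.121) and with DESeq2 (-0.38, adjusted p = 0.392). In somatotrope-like cells 8.97% of all genes passed. No receptor passed in the groups of lactotrope-like (5.66% of all genes), gonadotrope-like (3.07%), corticotrope-like (1.58%) or melanotrope-like cells (0.522%). Closest were Thra in melanotrope-like cells, with 24.5 and 61.3 CPM in the Pomc-rich against 96.5 and 118 CPM in the Pomc-poor groups (-1.20 ± 0.33, adjusted p = 0.0591), and Thrb in lactotrope-like cells, with 63.8 and 70.5 CPM in the Prl-rich against 52.1 and 58.3 CPM in the Prl-poor groups (0.28 ± 0.11, adjusted p = 0.114). Thra in melanotrope-like cells passed with no filter on low counts (adjusted p = 0.0422), with DESeq2 (0.0207), with clustering on variable genes (0.0166) and between the cells with the most and the least Pomc (0.0347). Prl was at 0.376 and 0.236% of UMIs in the Pomc-rich against 2.08 and 2.15% in the Pomc-poor groups, and 6 somatotrope markers summed to 191 and 128 against 149 and 560 CPM. The part of these in the Thra values was not tested. Thrb in lactotrope-like cells passed with clustering on variable genes (0.32, adjusted p = 0.0393).

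Other genes of the lists moved in the same split. In somatotrope-like cells Greb1 was at 3.98 and 3.30 CPM in the Gh-rich against 10.4 and 8.88 CPM in the Gh-poor groups (-1.39 ± 0.23, adjusted p = 3.66e-06). Klf9 was lower in the hormone-rich groups of 4 classes, by -0.50 ± 0.08 in somatotrope-like (adjusted p = 1.33e-05), -0.45 ± 0.12 in lactotrope-like (0.0112), -1.30 ± 0.20 in gonadotrope-like (1.02e-05) and -1.26 ± 0.15 in corticotrope-like cells (2.10e-08). Of the chaperone list 0 were higher and 7 of 10 lower in the Gh-rich groups, where 8.97% of all genes passed, and 0 higher and 5 of 10 lower in the Pomc-rich groups of corticotrope-like cells (1.58%). Markers of other cells moved with these splits. The 6 somatotrope markers summed to 1282 and 1219 CPM outside hormones in the Prl-rich against 2438 and 2167 in the Prl-poor lactotrope-like groups, and to 131 and 114 in the hormone-rich against 335 and 155 in the hormone-poor gonadotrope-like groups. In corticotrope-like cells they summed to 1132 and 752 in the Pomc-rich against 709 and 596 in the Pomc-poor groups, with Prl at 0.441 and 0.349% against 1.46 and 0.465% of UMIs. The part of these in the Klf9 and chaperone results was not tested. Values that moved with the split in somatotrope-like cells were Prl, at 0.227 and 0.243% of UMIs in the Gh-rich against 0.418 and 0.361% in the Gh-poor groups, and 6 other lactotrope markers, at 30.3 and 28.5 CPM outside hormones against 44.0 and 42.5. Of these 6, Drd2 was at 0 in all groups. The 5 gonadotrope markers were at 33.5 and 28.3 CPM in the Gh-rich against 30.7 and 30.1 in the Gh-poor groups. Nr4a1, an immediate early gene, was at 56.1 and 86.4 CPM in the Gh-rich against 164 and 232 CPM in the Gh-poor groups (-1.47 ± 0.26, adjusted p = 0.00621), and the heat shock gene Hsp90aa1 at 667 and 956 against 1386 and 1776 CPM (-0.97 ± 0.08, 2.97e-09). Median depth was 15453.5 and 15395 UMIs in the Gh-rich against 10937.5 and 11780 in the Gh-poor groups. The part of these in the Esr1, Greb1 and Klf9 results was not tested.

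**Figure D5:**
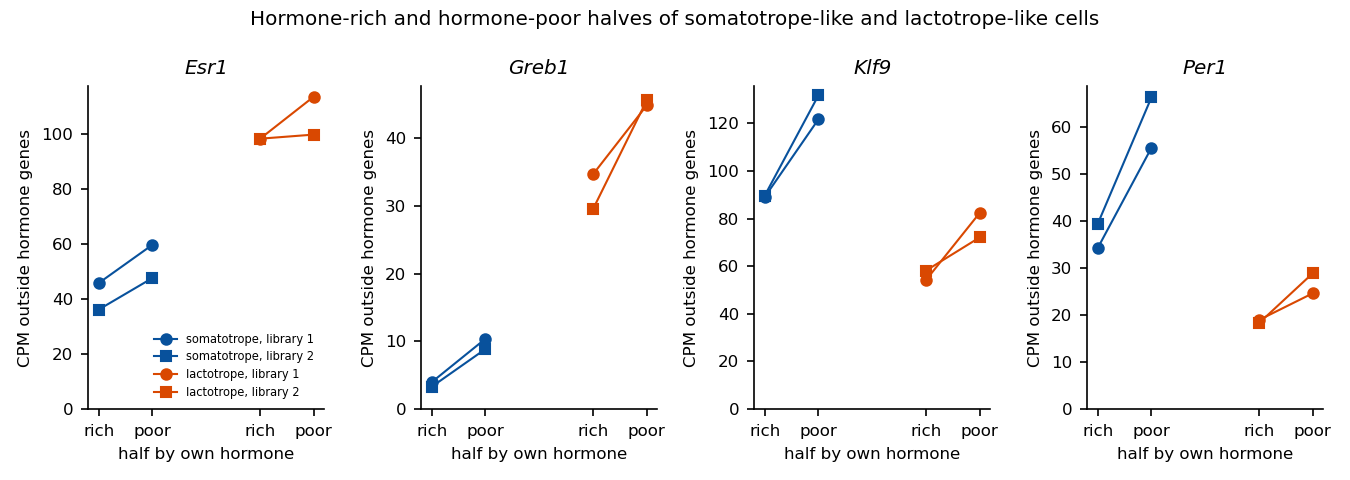
Levels of 4 genes, in CPM of UMIs outside the hormone genes, in the hormone-rich (left) and hormone-poor (right) group of somatotrope-like cells (blue) and lactotrope-like cells (orange), with a line for each library. Esr1 is lower in the Gh-rich group in both libraries (45.8 and 36.2 against 59.7 and 47.6 CPM).

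Thyrotropes, which thyroid hormone feeds back on, were not named as a class. A cluster of 198 cells, 98 in library 1 and 100 in library 2, was led by Tshb, Cck and Dio2 and was high in 5 of 5 thyrotrope markers. It was left unnamed by a limit set after the clusters were seen, that 50% of the cells hold their own hormone at 0.5% of UMIs or more, since 17.2% of its cells did for Tshb, and 19.7% of its cells had Gh over 30% of UMIs. Cells with Tshb at 1% or more and Gh under 10% of UMIs numbered 8 in library 1 and 29 in library 2, and 32 of the 37 lay in unnamed clusters. This range is cut from 1 gene, the lowest cell inside having 1.004% and the highest outside 0.852%. With under 10 cells in library 1 no test was made. Thrb had 3 and 10 UMIs in them, or 81.1 and 85.5 CPM outside hormone genes, with exact Poisson 95% intervals of 16.7 to 237 and 41.0 to 157 that cover counting error only. Rxrg had 3 and 6 UMIs (81.1 and 51.3 CPM) and Thra 2 and 6 UMIs (54.1 and 51.3 CPM) on this scale. The CPM of the classes above are on another scale. On the scale outside hormone genes, Thrb was at 55.6 and 61.1 CPM in lactotrope-like cells, inside both intervals. Rxrg was at 126 and 104 CPM in somatotrope-like cells there, and Thra at 191 and 144 CPM in corticotrope-like cells. Dio2 had 15 UMIs in 6 of the 8 cells of library 1 and 74 UMIs in 24 of the 29 cells of library 2.

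To compare shares of cells with a receptor UMI, cells were thinned to 1000 UMIs outside the hormone genes. Shares are mean ± SD over n = 2 libraries. Of somatotrope-like cells 10.8 ± 1.79% had an Rxrg UMI, as did 0.942 ± 0.0970% of lactotrope-like cells and 0 of 279 endothelial-like cells, which allows a share of up to 1.08%. Without thinning the shares were 43.2 ± 2.10% and 4.802 ± 0.861%, and 0.722 ± 0.0841% in endothelial-like cells. Esr1 was seen in 14.7 ± 3.47% of gonadotrope-like, 9.47 ± 0.117% of lactotrope-like and 0.391 ± 0.552% of endothelial-like cells. The unthinned shares were 64.0 ± 3.60%, 40.4 ± 0.809% and 2.22 ± 1.27%. Nr3c1 was seen in 16.7 ± 1.32% of corticotrope-like and 0.326 ± 0.0494% of lactotrope-like cells, and in 8.15 ± 1.58% of endothelial-like cells, which are not a background for a gene they hold. Unthinned, these were 53.0 ± 0.394%, 1.79 ± 0.186% and 33.7 ± 0.893%. Thrb was seen in 5.03 ± 0.880% of lactotrope-like and 0 of 279 endothelial-like cells, unthinned 25.9 ± 2.06% and 1.83 ± 0.721%. Median depth outside the hormone genes was 4941.5 and 5224 UMIs in somatotrope-like cells and 4376.5 and 4378 in endothelial-like cells. It was 7978 and 8310 in gonadotrope-like, 5463.5 and 5626 in lactotrope-like and 4115 and 3964 in corticotrope-like cells. Unthinned shares of these classes therefore differ in depth as well.

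The genes whose pattern was most like that of each receptor were found by Pearson's r of log2(CPM + 1) over 24 columns, that is 12 classes in 2 libraries, among 8687 genes that are neither markers nor predicted genes. The columns share libraries, and r is a description. Rxrg was most like Atg9b (r = 0.956), Dapl1 (0.919) and Tcerg1l (0.918), all highest in somatotrope-like cells. For Esr1 they were Tmed10 (0.908), Got1 (0.851) and Fam19a2 (0.846), and for Pgr Scg2 (0.905), Kcnb2 (0.897) and Sult4a1 (0.894). Thrb was nearest to Sec11a (0.861), Slc6a11 (0.817) and Frmd5 (0.810), and Thra to Rbms3 (0.836), Sulf1 (0.824) and Zbtb20 (0.797). The nearest to Nr3c1 were Tcf7l2 (0.834), Tmem37 (0.822) and Tfeb (0.757), and to Nr3c2 Fbxo9 (0.826), Cir1 (0.772) and Gstk1 (0.771). Vdr had the weakest likeness, with Slc1a2 (0.759), Klf14 (0.719) and Gpm6a (0.712).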

How the data were processed

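Per the labels' protocols, 2 pools of 3 pituitary glands were digested for 4 h and loaded on the 10x Chromium 3' v2 platform, 17400 cells per pool. The values deposited by the authors are raw counts of UMIs per gene and barcode. Cell Ranger, STAR and build mm10 are named in the submitters' processing notes, without versions. The number ending each barcode was taken as the pool.

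Barcodes with at least 500 UMIs, 250 genes and at most 20% mitochondrial UMIs were kept, and the 7.6% with the highest scores of similarity to simulated doublets were removed from each library. Cells were clustered (12 components, 15 neighbours, Leiden resolution 1, scanpy 1.11.5) on 97 markers and named from them. Of 29 clusters 6, with 1380 cells, stayed unnamed. Limits for naming were set after the clusters were seen. UMIs were summed per class and library and tested with edgeR 4.0.16 (TMM, filterByExpr, robust quasi-likelihood test, library as a block because every class comes from both pools, R 4.3.3), with Benjamini-Hochberg adjustment over 12407 genes at 0.05. That fit had 24 columns and 11 residual degrees of freedom. The fit of hormone-rich against hormone-poor cells, split at the median, covered 10927 genes, with library sizes without 7 hormone genes. Standard errors are the log2 fold change divided by the root of F. The p-values measure how 2 pools disagree on differences between classes, not the spread between animals. With simulated data, 86.0% of 200 genes changed 2-fold in lactotrope-like cells were recovered, 46.0% in melanotrope-like cells and 87.5% between those groups of lactotrope-like cells. False calls numbered 8, 2 and 10. The simulated counts held no other class differences, and genes of low mean count were not changed. These rates therefore do not cover receptor values of few UMIs.

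Members, lists and tests were chosen with earlier results of these data known. Named from each list were up to 4 genes that passed in a hormone class, went 1 way in both libraries and reached 20 CPM on the higher side, by the largest absolute log2 fold change. Genes of like pattern also had to reach 20 CPM in a class. Alternatives were edgeR with DESeq2's size factors, DESeq2 1.42.0, no filter on low counts, no library block, resolutions 0.5 and 2, doublet calls kept, clustering on 2000 variable genes, and each library alone. Some listed genes are not reported here.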

Additional observations from a re-analysis of the deposited data

How the results depend on the processing

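Of 39 called differences of the receptors across the 10 class comparisons, 31 kept their direction and call in every alternative fit that gave a value, of 9 alternatives, and all 39 kept their direction in each library alone, where no test is possible. The lost calls are given beside their results. Called values that changed sign were Esr1 in pituicyte-like cells at resolution 0.5 (0.40) and Rxrg in melanotrope-like cells with clustering on variable genes (0.86). Of the values not called, Nr3c1 in gonadotrope-like cells turned to -0.34 with clustering on variable genes, and Thrb and Rxrg in pituicyte-like cells to 2.18 and 2.26 at resolution 0.5, both past the threshold there. At that resolution the pituicyte-like class held 203 cells in place of 52. The totals over all hormone classes (25 of 35 tests), over the other classes (14 of 35) and over the pairs (55 of 70) stayed within 1.5 times, but single classes did not: the 3 lower receptors of melanotrope-like cells became 0 and the 2 lower ones of endothelial-like cells 4 with clustering on variable genes. The 1 receptor called between hormone-rich and hormone-poor cells became 9 with clustering on variable genes, 4 with doublet calls kept, 3 between cells with the most and the least hormone, 2 with no filter on low counts and at resolution 0.5, and 0 with no library block, as the labels' pool number pairs the columns. Genes called in somatotrope-like cells between these groups numbered 980, but 358 with no block, 342 with DESeq2 and 1624 with doublet calls kept, and those called in pituicyte-like cells 2724, but 1507 at resolution 0.5. DESeq2's size factors moved the median of all genes by 0.23 in macrophage-like and 0.19 in pituicyte-like cells, and put the share of calls that were higher in lactotrope-like cells at 44.1% in place of 55.0%, in somatotrope-like at 48.3% in place of 57.4%, in melanotrope-like at 67.7% in place of 57.2%, in macrophage-like at 59.8% in place of 48.5% and in pituicyte-like at 61.2% in place of 48.8%. The planned test in Tshb-rich cells was not run for want of cells. Under about 10 UMIs per class, depth limits the receptor values.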
